A study of Homo sapiens with 9 samples.

Results

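The genes described here are 8 of the 60612 genes listed in the deposited table: HAS2 and HAS3, which make hyaluronan, CEMIP, HYAL1, HYAL2 and HYAL3, which break it down or take part in its breakdown, and CD44 and HMMR, which bind it. They were chosen by name, with earlier results of these same comparisons known, so their differences between groups are given as a description and support nothing further. All 8 had enough counts to enter the test across genes, for which 15345 genes qualified. The cells were MDA-MB-231, an established human triple-negative breast cancer line with mesenchymal features. Each of 3 groups held 3 libraries, made 48 hours after lipid transfection of unmodified cells with a negative control siRNA, with siRNA1 or with siRNA2. Title and treatment labels give MILIP, a long noncoding RNA, as the target of siRNA1 and siRNA2, while the treatment protocol calls the target PLANE. Nothing in the labels ties the 3 libraries of a group to separate cultures, so the tests below measure the spread between libraries, and the same 3 control libraries serve both siRNAs.

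Hyaluronan is a long unbranched sugar polymer of the extracellular matrix, built at the plasma membrane by HAS enzymes from UDP-glucuronic acid and UDP-N-acetylglucosamine. It is cut by hyaluronidases of the HYAL family and with the help of CEMIP. Fragments and long chains alike bind CD44 and the receptor for hyaluronan-mediated motility, HMMR. In breast cancer the pathway is best known for HAS2 and CD44 in invasive, mesenchymal cells, and HMMR is also a spindle protein whose transcript follows the cell cycle.

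The promoters of CEMIP and HMMR are printed because these were the breakdown gene with the largest difference and the receptor whose known role lies in mitosis. Both are RefSeq windows on GRCh38.p14, plus strand, from 250 bases before the start of transcription to 50 after it, at chr15:80779120-80779419 for CEMIP and chr5:163460382-163460681 for HMMR. Capitals mark the letters of 6 motifs searched on either strand. For core promoter elements these were the TATA box with the letters TATAAA, the CCAAT box by the letters in its name, and the GC box written as GGGCGG. For regulated sites they were the AP-1 site written as TGANTCA, the E-box searched in the form CACGTG, and the cell cycle homology element with the letters TTTGAA.
CEMIP: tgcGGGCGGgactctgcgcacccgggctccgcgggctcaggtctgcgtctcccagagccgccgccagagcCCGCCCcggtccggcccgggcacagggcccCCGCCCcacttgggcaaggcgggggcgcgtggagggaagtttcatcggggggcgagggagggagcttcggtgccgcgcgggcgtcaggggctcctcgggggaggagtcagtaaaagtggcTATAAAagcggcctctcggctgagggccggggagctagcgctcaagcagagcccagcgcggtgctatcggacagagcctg
HMMR: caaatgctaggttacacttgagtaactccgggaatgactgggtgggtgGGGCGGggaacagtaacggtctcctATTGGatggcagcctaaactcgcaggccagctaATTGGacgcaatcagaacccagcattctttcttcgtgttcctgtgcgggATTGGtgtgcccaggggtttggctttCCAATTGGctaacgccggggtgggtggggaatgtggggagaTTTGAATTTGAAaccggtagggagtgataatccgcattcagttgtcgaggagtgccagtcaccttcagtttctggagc

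CEMIP holds 1 TATA box, 30 bases before the start, and 3 GC boxes. Among all 35116 promoters of this length 11.53% hold the TATA letters and 44.954% the GC box. The RefSeq starts used for these windows lie inside the gene spans given with each gene below, which begin earlier. HMMR holds 5 CCAAT boxes, of which those at 69 and 66 bases before the start overlap, and 2 abutting cell cycle homology elements, 28 and 22 bases before the start. Those letters occur in 34.614% and 15.161% of promoters. RefSeq windows were at hand for 7 of the 8 genes, all but HAS2. Among those 7, the TATA letters were found for CEMIP alone and the TTTGAA letters for HMMR alone. HAS3 holds the E-box, which 7.256% of promoters have, and no member holds the AP-1 letters, which 7.709% have. A match describes these letters and is not a measured binding site.

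The 3' UTRs were also read for the 7-base word most associated, by its t value on these same fold changes, with lower transcripts in each siRNA group. These words were AATTCCA for siRNA1, held by 2111 of 12583 UTRs (16.78%), and GACCCTA for siRNA2, held by 665 (5.285%), and MILIP holds both. The siRNA sequences were not used here. No member holds the siRNA1 word. CEMIP and HYAL2 each hold the siRNA2 word, at bases 1220 to 1226 of a UTR of 2852 bases and at bases 240 to 246 of a UTR of 339 bases, shown 5' to 3' with the word in capitals. CEMIP was higher and HYAL2 lower with siRNA2, as described further on, and whether the words had a part in any value was not tested.
CEMIP site: ggcctccaggaGACCCTAgatgtgctcgta
HYAL2 site: ggggaggacctGACCCTActcccttgccct

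Libraries held 15281220 to 19759371 gene counts, and levels are given in CPM, that is counts per 1000000 scaled by TMM, with 3 counts equal to 0.152 to 0.198 CPM. MILIP (listed as MAFG-DT, ENSG00000265688) had a mean of 8.40 ± 0.254 CPM in control. That was 1.24 ± 0.641 CPM after siRNA1 and 0.615 ± 0.315 CPM after siRNA2 (SD over 3 libraries), or 14.7% and 7.33% of control, with an exact permutation p = 0.1, the smallest possible for 3 against 3. Of the markers that define the line, VIM (4774 CPM in control) and CD44 were abundant and CDH2 and SPARC low, and of the receptors such lines lack, PGR had 0 or 1 count per library while ERBB2 was at 61.3 CPM in control. Summed epithelial markers (9 of 12 tested) ranged from 1212 to 1393 CPM in control, 2139 to 2479 CPM with siRNA1 and 1441 to 1482 CPM with siRNA2. Most of this was KRT8 (means of 464, 1065 and 581 CPM) and KRT18 (500, 825 and 390 CPM). Other epithelial markers went different ways, such as CLDN4 (138, 192 and 202 CPM), EPCAM (5.63, 5.79 and 3.34 CPM) and ESRP2 (5.59, 4.05 and 5.16 CPM). Summed fibroblast markers (6 of 11 tested, POSTN at 0 in every library) ranged from 14.1 to 17.3, 53.1 to 61.5 and 75.8 to 77.3 CPM in the same order, and most of this was COL1A1. Leukocyte markers (2 of 8 tested, CD3E and MS4A1 at 0 in every library) summed to 2.10 to 3.11, 1.40 to 3.13 and 8.98 to 10.3 CPM, mostly CD14, and endothelial markers (3 of 6 tested) to 9.37 to 11.5, 6.00 to 7.84 and 18.6 to 20.7 CPM. The part of these shifts in the values below was not tested.

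With siRNA1, 5 of the 8 genes were called, 2 higher and 3 lower, beside 50.5% of all tested genes called, 25.1% higher and 25.4% lower. A gene is called where the quasi-likelihood test of edgeR, adjusted over all tested genes by Benjamini-Hochberg, gives an adjusted p below 0.05. The words rose and fell are kept for called differences, while higher and lower also describe levels. With siRNA2, 5 of 8 were called, 3 higher and 2 lower, beside 56.1% of all tested genes, 27.2% higher and 28.9% lower. Between the siRNAs, 4 were called, 3 higher with siRNA2 and 1 lower, beside 60.5%, 28.4% and 32.1% of all genes. The median log2 fold change of the 8 was -0.16 with siRNA1, -0.0074 with siRNA2 and 0.19 between them, beside 0.0032, -0.011 and -0.033 over all tested genes. Nothing is read from these counts, since the same contrasts were known when the genes were chosen.

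**Figure D1:**
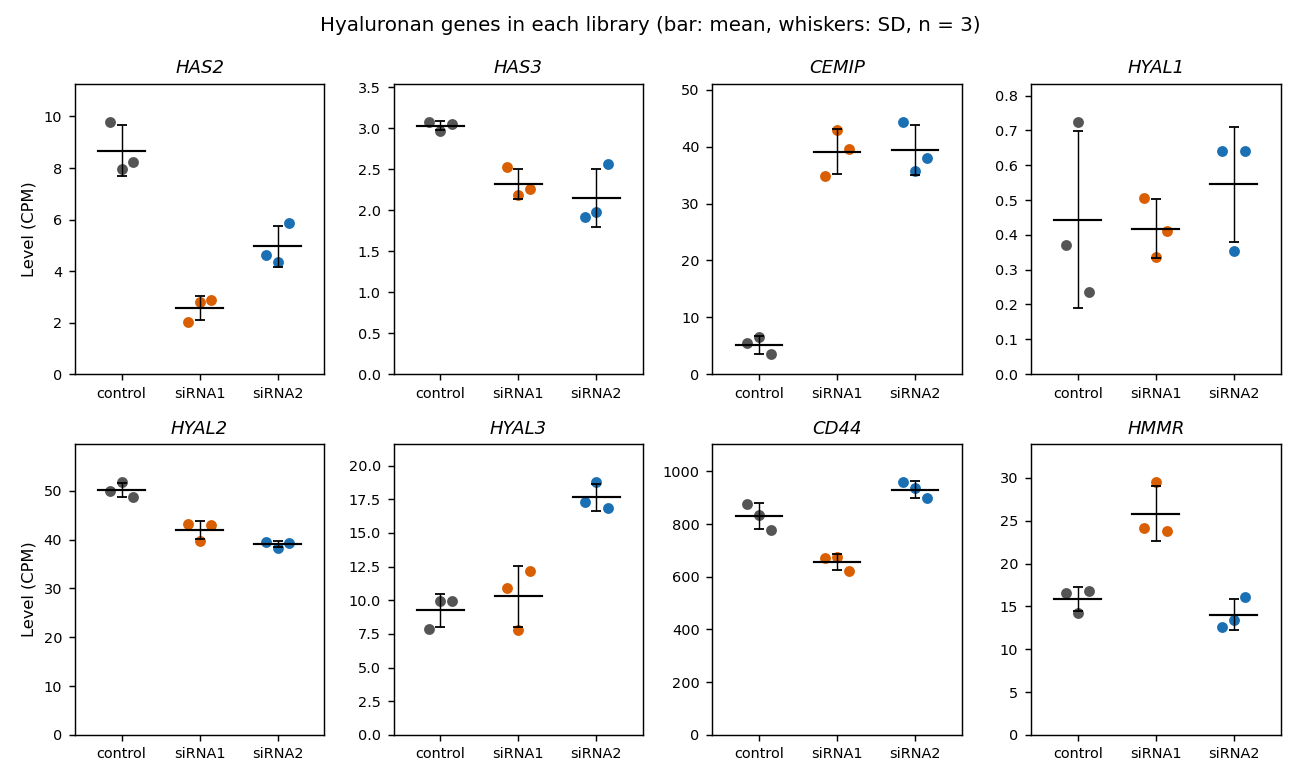
Level of each gene in each library, in CPM on a linear axis that starts at 0, with points for libraries, a bar for the group mean and whiskers for the SD (n = 3). HAS2 is lowest with siRNA1, CEMIP is high with both siRNAs, HYAL3 is high with siRNA2, and CD44 and HMMR sit on opposite sides of control with siRNA1.

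Per length, the genes differed widely in the control libraries. In FPKM (counts per kilobase of exonic length and 1000000 counts), CD44 stood at 82.5 ± 5.40, at or above 96.7% of tested genes, and HYAL2 at 11.3 ± 0.362. HYAL3 (4.67 ± 0.598) and HMMR (4.01 ± 0.364) followed, with libraries that overlapped each other. HAS2 was at 2.03 ± 0.241 FPKM, above CEMIP (0.67 ± 0.2) and HAS3 (0.58 ± 0.01), which overlapped. HYAL1 was lowest at 0.143 ± 0.0777 FPKM (SD, n = 3 each). With siRNA1 the order became CD44 (66.4 FPKM), HYAL2 (9.61), HMMR (6.65), HYAL3 (5.29), CEMIP (5.20), HAS2 (0.61), HAS3 (0.453) and HYAL1 (0.137). With siRNA2 it was CD44 (92.6), HYAL3 (8.91), HYAL2 (8.78), CEMIP (5.14), HMMR (3.55), HAS2 (1.16), HAS3 (0.41) and HYAL1 (0.173). These orders are by group mean. Libraries of HMMR and HYAL3 overlapped with siRNA1, as did those of HAS2 and HAS3. Those of HYAL3 and HYAL2 overlapped with siRNA2, so their order there is open. CEMIP thus moved from the level of HAS3 to that of HYAL3 with siRNA1, where their libraries overlapped, while CD44 stayed on top in every library.

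HAS2, the synthase that makes long chains and the main one in many mesenchymal cells, fell with both siRNAs and further with siRNA1. Its counts were 159, 121 and 140 in control, 32, 50 and 56 with siRNA1, and 87, 86 and 101 with siRNA2, or 9.81, 7.98 and 8.22 CPM, 2.02, 2.80 and 2.87 CPM, and 4.64, 4.36 and 5.87 CPM. The 3 groups did not overlap at all, with control highest and siRNA1 lowest. The mean fell from 8.67 ± 0.993 to 2.57 ± 0.471 CPM with siRNA1, a log2 fold change of -1.74 (SE 0.177), and to 4.96 ± 0.806 CPM with siRNA2, -0.81 (SE 0.159). HAS2 was higher with siRNA2 than with siRNA1 by 0.93 (SE 0.186) on the log2 scale. In bulk libraries, fewer cells with the transcript and less of it per cell cannot be told apart.

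HAS2 (ENSG00000170961) lies on the minus strand and overlaps HAS2-AS1, a noncoding antisense transcript, by 2098 bases at their 5' ends. HAS2-AS1 was at 0.941 CPM in control, and at 0.671 and 0.231 CPM with siRNA1 and siRNA2. Its log2 fold changes were -0.49 (adjusted p = 0.36) and -1.97 (adjusted p = 0.00176), by edgeR. The antisense transcript had 10, 21 and 14 counts in control, 13, 13 and 9 with siRNA1, and 2, 7 and 4 with siRNA2. By group mean it was lowest with siRNA2 and the synthase with siRNA1. Its log2 difference between the siRNAs was -1.48 (adjusted p = 0.0192 by edgeR). That call was lost with limma on log2(FPKM + 1) and without siRNA1 replicate 1 or 2 or siRNA2 replicate 1. HAS2-AS1 passed the count filter only through control and siRNA1 libraries, where it was higher, so its calls with siRNA2 support nothing. The labels do not give whether counting used strand, and without strand the reads of a gene and its antisense partner are not separable.

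HAS3 (ENSG00000103044, chromosome 16, 69105653 to 69118719), a synthase that makes shorter chains, was scarcer than HAS2 and was not called. It was at 3.08, 2.97 and 3.05 CPM in control, 2.53, 2.19 and 2.26 CPM with siRNA1, and 1.92, 1.98 and 2.56 CPM with siRNA2. Every siRNA library lay below every control library, and the siRNA groups overlapped. The log2 fold change was -0.39 (SE 0.217) with siRNA1 and -0.50 (SE 0.218) with siRNA2. The second was called when siRNA2 replicate 3 was left out (-0.64), and also with limma on log2(FPKM + 1), where it was -0.17. HAS3 shares 710 bases with CHTF8 on the opposite strand, a gene lower with both siRNAs (-0.60 and -0.49, adjusted p = 0.000219 and 0.00116 by edgeR).

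Summed per length, the synthases went from 2.61 ± 0.250 FPKM in control to 1.06 ± 0.0814 and 1.57 ± 0.266 FPKM with siRNA1 and siRNA2 (SD, n = 3 each). HAS2 made up 76.6% to 79.7% of that sum in control, 49.5% to 60.9% with siRNA1 and 73.0% to 74.8% with siRNA2. The share of HAS3 was thus largest with siRNA1. HAS1, the remaining synthase, had 0 to 2 counts per library and was not tested.

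CEMIP (ENSG00000103888, chromosome 15, 80779343 to 80951776), which binds hyaluronan and is needed for its cleavage by several cell types, had the largest difference of the 8 genes. It was at 5.49, 6.46 and 3.46 CPM in control (89, 98 and 59 counts), 34.9, 42.9 and 39.6 CPM with siRNA1 and 44.4, 35.8 and 38.0 CPM with siRNA2. Every siRNA library was far above every control library, and the siRNA groups overlapped. The mean was 5.14 ± 1.53 CPM in control, 39.1 ± 4.02 CPM with siRNA1 and 39.4 ± 4.47 CPM with siRNA2. The log2 fold changes were 2.94 (SE 0.145) and 2.95 (SE 0.145), or 7.62-fold and 7.67-fold. Between the siRNAs the log2 difference was 0.0083 (SE 0.112), and its sign changed with the choice of libraries. CEMIP overlaps MESD, a chaperone gene, on the opposite strand by 5488 bases, and MESD moved less and in different directions (-0.33, adjusted p = 0.00027, and 0.25, adjusted p = 0.00223, by edgeR).

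**Figure D2:**
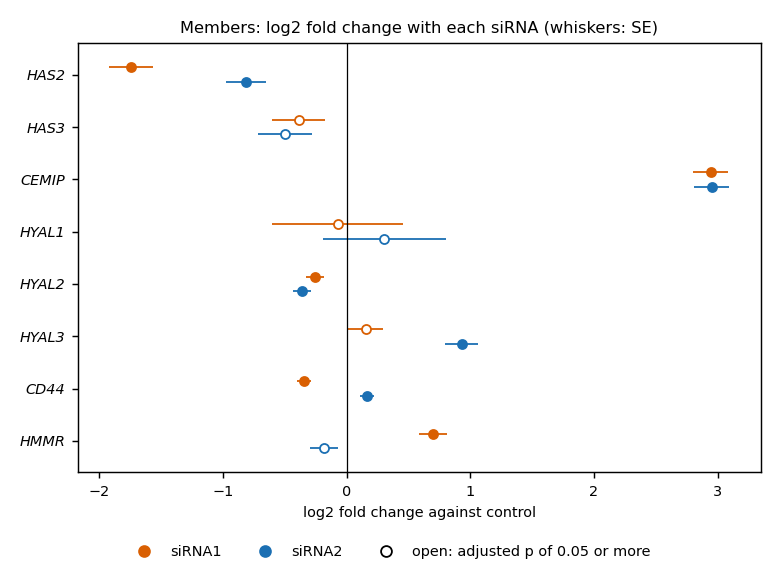
Log2 fold change against control for each gene with siRNA1 and siRNA2, with whiskers for the SE and open points where the adjusted p is 0.05 or more. CEMIP lies at 2.94 and 2.95, HAS2 at -1.74 and -0.81, and CD44 on either side of 0.

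HYAL2 (ENSG00000068001), a membrane-anchored hyaluronidase that cuts long chains at the cell surface, fell a little with both siRNAs. Its level was 50.1, 51.8 and 48.8 CPM in control, 43.1, 39.8 and 43.0 CPM with siRNA1, and 39.5, 38.3 and 39.3 CPM with siRNA2. The groups did not overlap. The log2 fold changes were -0.26 (SE 0.0730) and -0.36 (SE 0.0731). Between the siRNAs it was -0.10 (SE 0.0735) and was not called.

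HYAL3 (ENSG00000186792), a family member whose own hyaluronidase activity is less well established, rose with siRNA2. It was at 7.83, 9.96 and 9.98 CPM in control, 10.9, 7.80 and 12.2 CPM with siRNA1, and 17.3, 18.8 and 16.9 CPM with siRNA2. The siRNA2 libraries stood above all others, and control and siRNA1 overlapped. The log2 fold change was 0.93 (SE 0.133) with siRNA2 and 0.16 (SE 0.141) with siRNA1. The siRNA1 value was not called with all libraries, but was without siRNA1 replicate 2 (0.32), which held the lowest value of the 9. HYAL3 was higher with siRNA2 than with siRNA1 by 0.78 (SE 0.130). Per length, the ratio of HYAL3 to HYAL2 was 0.414 ± 0.0563 in control, 0.548 ± 0.1 with siRNA1 and 1.02 ± 0.0736 with siRNA2 (SD, n = 3 each).

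HYAL1 (ENSG00000114378), a lysosomal hyaluronidase, was barely present. It had 6, 11 and 4 counts in control, 8, 6 and 8 with siRNA1, and 12, 7 and 11 with siRNA2. All groups overlapped, and it was not called (log2 fold change -0.071, SE 0.530, and 0.31, SE 0.501). At this depth only a large difference could have been detected for it.

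The 3 HYAL genes lie next to each other on the minus strand of chromosome 3, at 50292831 to 50299405 (HYAL3), 50299890 to 50312381 (HYAL1) and 50317790 to 50322782 (HYAL2), in GRCh38 coordinates of the deposited table. Neighbours did not move as a block. IFRD2, which shares 88 bases with HYAL3 on the same strand, fell with siRNA2 by 0.97 on the log2 scale (adjusted p = 9.22e-13 by edgeR), where HYAL3 rose. NAA80, an actin acetyltransferase gene, shares 3020 bases and nearly its 5' end with HYAL3 on the same strand. It fell with siRNA1 (-0.62, adjusted p = 0.00014) and was at 0.26 with siRNA2 (adjusted p = 0.0511, by edgeR). The siRNA2 value of NAA80 was called with median-of-ratios (RLE) scaling, a mean FPKM of at least 1, both limma fits and 2 groups alone. It was also called without siRNA1 replicate 2. Reads in the shared bases could be assigned to either gene or to neither, so the values of HYAL3 and NAA80 are uncertain. TUSC2, which shares 2880 bases with HYAL2 on the same strand, was at 0.064 with siRNA1 (adjusted p = 0.539) and fell with siRNA2 (-0.23, adjusted p = 0.0207, by edgeR). That call was lost with no filter and without control replicate 3 or siRNA2 replicate 2 or 3. The limit of shared bases holds for the values of HYAL2 and TUSC2 as well. Of the other genes within 50 kb, SEMA3B, a secreted semaphorin, rose with both siRNAs (0.42 and 0.51) and the G protein gene GNAI2 rose with siRNA2 (0.69). RASSF1 fell with siRNA1 (-0.47).

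**Figure D3:**
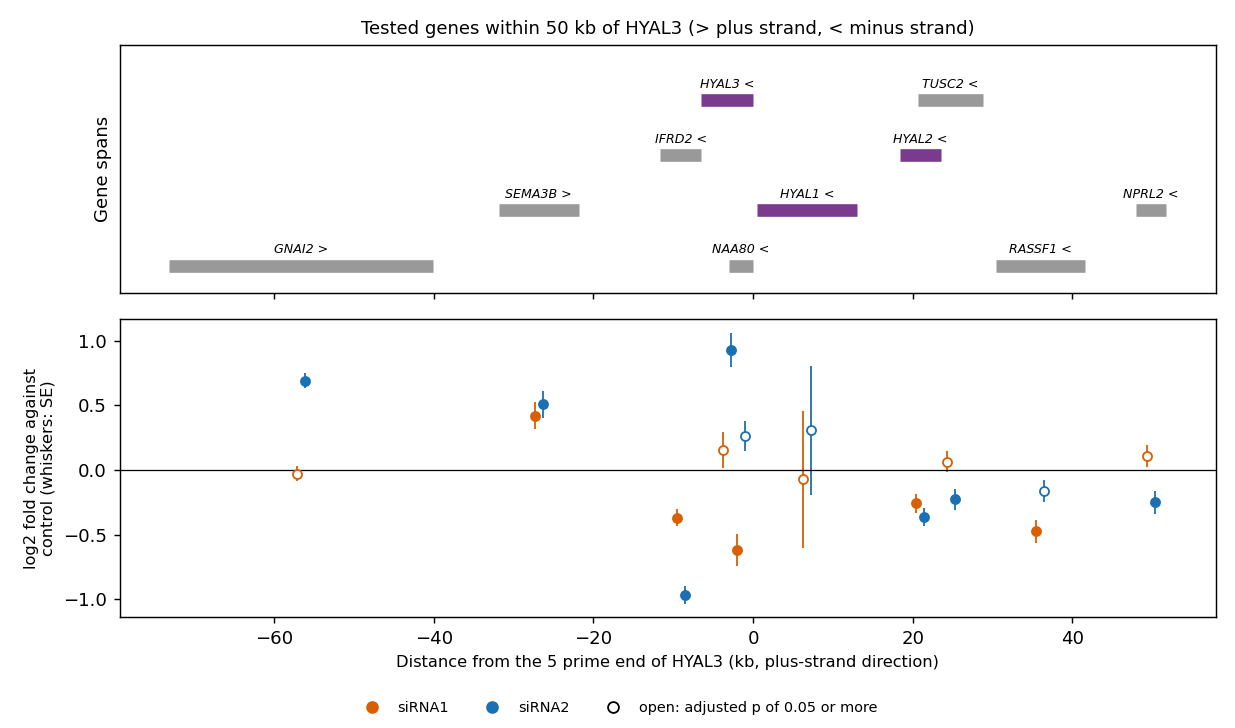
Upper panel, spans of the tested genes within 50 kb of HYAL3 against distance from its 5' end in kb, with arrows for strand; lower panel, log2 fold change of each against control, placed at the middle of its span, with whiskers for the SE and open points where the adjusted p is 0.05 or more. HYAL3 (0.93) and IFRD2 (-0.97), side by side, lie farthest apart with siRNA2.

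CD44 (ENSG00000026508, chromosome 11, 35138882 to 35232402), the main cell surface receptor for hyaluronan, fell with siRNA1 and rose slightly with siRNA2. It was at 876, 833 and 778 CPM in control, 670, 675 and 620 CPM with siRNA1, and 958, 937 and 897 CPM with siRNA2. The 3 groups did not overlap, with control between the siRNAs. The mean was 829 ± 49.2 CPM in control, 655 ± 30.2 CPM with siRNA1 (log2 fold change -0.34, SE 0.0566) and 931 ± 31.0 CPM with siRNA2 (0.17, SE 0.0564). The difference between the siRNAs was 0.51 (SE 0.0565). The call with siRNA2 was lost without siRNA2 replicate 1, where the log2 fold change was 0.15. Gene counts do not separate the standard and variant splice forms of CD44.

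HMMR (ENSG00000072571, chromosome 5, 163460203 to 163491941), a hyaluronan receptor and spindle protein, rose with siRNA1. It was at 16.5, 14.2 and 16.8 CPM in control, 24.2, 29.5 and 23.8 CPM with siRNA1, and 12.6, 13.4 and 16.1 CPM with siRNA2. The siRNA1 libraries stood above all others, and control and siRNA2 overlapped. The log2 fold change was 0.70 (SE 0.111) with siRNA1 and -0.18 (SE 0.116) with siRNA2, the latter not called. Set against siRNA1, the siRNA2 level of HMMR was lower, with a log2 difference of -0.88 (SE 0.110). NUDCD2, whose annotated span in GENCODE ends 63 bases from that of HMMR, head to head on the other strand, moved the other way with siRNA1, from 44.5 to 19.3 CPM (-1.21, adjusted p = 6.21e-12), and had 36.9 CPM after siRNA2 (-0.27, adjusted p = 0.00822, by edgeR, a call lost without siRNA2 replicate 1). Its 3' UTR holds both words described above.

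Since HMMR is a cell cycle transcript, 21 genes of the mitotic spindle and of G2/M were set beside it. All 21 fell with siRNA2 and none rose, while with siRNA1 9 rose, 4 fell and 8 were not called. Of all tested genes, 27.2% rose and 28.9% fell with siRNA2, and 25.1% rose and 25.4% fell with siRNA1. The median log2 fold changes of the 21 were -0.52 with siRNA2 and 0.03 with siRNA1. Leaving out each library in turn left 19 to 21 of these genes lower with siRNA2. The largest differences were those of TOP2A, the DNA topoisomerase of dividing cells (-1.22 with siRNA1, adjusted p = 4.48e-13, and -0.29 with siRNA2, adjusted p = 0.00116), and CDC20, an activator of the anaphase-promoting complex (-0.88 with siRNA2, adjusted p = 1.14e-12, by edgeR). UBE2C, its ubiquitin-conjugating enzyme, rose by 0.23 with siRNA1 and was at -0.85 with siRNA2, and the mitotic kinase PLK1 was at 0.18 and -0.74, its siRNA1 call being lost without control replicate 1 or siRNA1 replicate 3. AURKB fell with siRNA2 (-0.84), as did the checkpoint kinase BUB1B (-0.79), and neither was called with siRNA1 except BUB1B without siRNA1 replicate 2. By log2 fold change HMMR was thus above each of the 21 with siRNA1, and with siRNA2 its value of -0.18 lay closer to 0 than each of theirs.

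**Figure D4:**
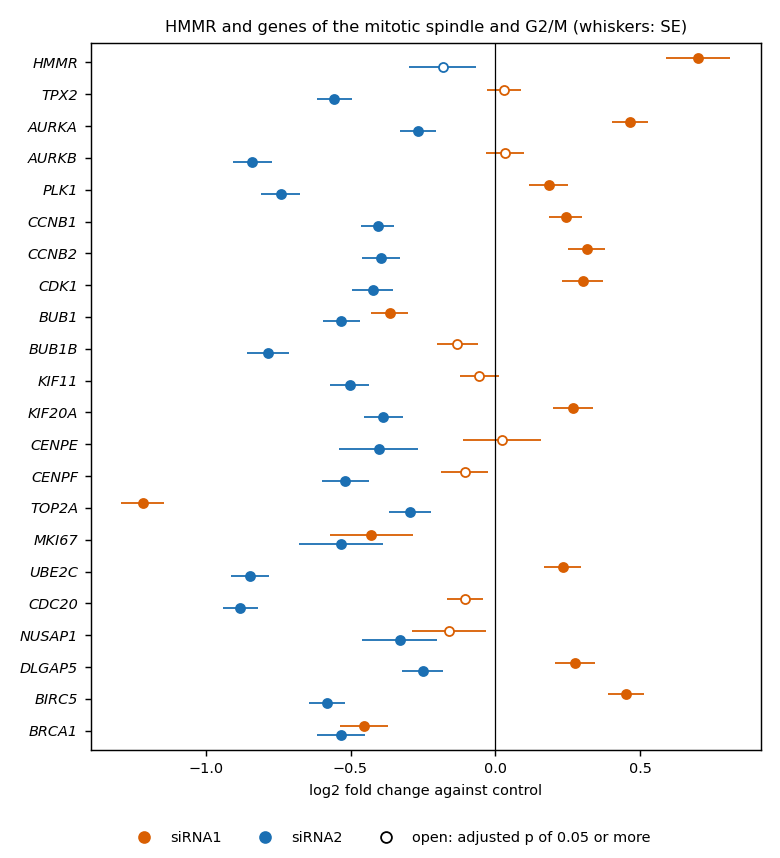
Log2 fold change against control of HMMR (top) and of 21 mitotic spindle and G2/M genes with each siRNA, with whiskers for the SE and open points where the adjusted p is 0.05 or more. All 21 lie below 0 with siRNA2, where HMMR is at -0.18, and HMMR is farthest to the right with siRNA1 at 0.70.

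Genes that supply sugar precursors moved unevenly. All 12 listed precursor enzymes were tested. With siRNA1 3 rose and 6 fell, beside 25.1% and 25.4% of all tested genes. With siRNA2 8 rose and 4 fell, beside 27.2% and 28.9%. The median log2 fold changes of the 12 were -0.13 and 0.46. GFPT1, the rate-limiting enzyme of the hexosamine pathway, rose with both (0.75, adjusted p = 5.43e-10, and 1.03, adjusted p = 5.69e-13, by edgeR). UAP1, which makes UDP-N-acetylglucosamine, fell with both (-1.10, adjusted p = 5.32e-14, and -0.59, adjusted p = 7.23e-09, by edgeR), and so did the hexokinase gene HK2 (-1.29 and -0.86). GFPT2 had 528 CPM in control, 424 CPM after siRNA1 (-0.31) and 944 CPM after siRNA2 (0.84), and HK1 likewise changed in opposite directions (-0.35 and 0.69). UAP1L1, a paralog of UAP1, rose with siRNA2 (0.83) and was not called with siRNA1 (0.088).

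Of 6 further genes listed under hyaluronan breakdown, by role or by family name, 4 were tested. With siRNA1 1 rose and 3 fell, beside 25.1% and 25.4% of all tested genes. With siRNA2 3 rose and none fell, beside 27.2% and 28.9%. The median log2 fold changes of the 4 were -0.20 and 0.33. CEMIP2, a transmembrane relative of CEMIP also known as TMEM2, was at 71.6 ± 6.93 CPM in control, 136 ± 8.21 CPM with siRNA1 and 212 ± 5.81 CPM with siRNA2. It rose with both (0.93, adjusted p = 3.76e-12, and 1.57, adjusted p = 4.46e-17, by edgeR). The lysosomal exoglycosidases that finish the breakdown differed between siRNAs, with GUSB at -1.35 (adjusted p = 1.31e-13) and -0.12 (adjusted p = 0.207), and HEXA at -0.21 and 0.27 (adjusted p = 0.0106 and 0.000902, by edgeR), the siRNA1 call of HEXA being lost without siRNA1 replicate 3. HYAL4, named after its values were seen, fell under the count filter with 1 count in each control library, 7 to 25 with siRNA1 and 0 or 1 with siRNA2. It entered the test, and was called higher with siRNA1, where the filter was dropped. The same held without any 1 of the control or siRNA2 replicates or siRNA1 replicate 1, giving 2 genes higher in place of 1. In those left-out fits HYAL4 passed the filter only through its siRNA1 counts, so these calls support nothing. SPAM1 had 0 or 1 count per library.

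**Figure D5:**
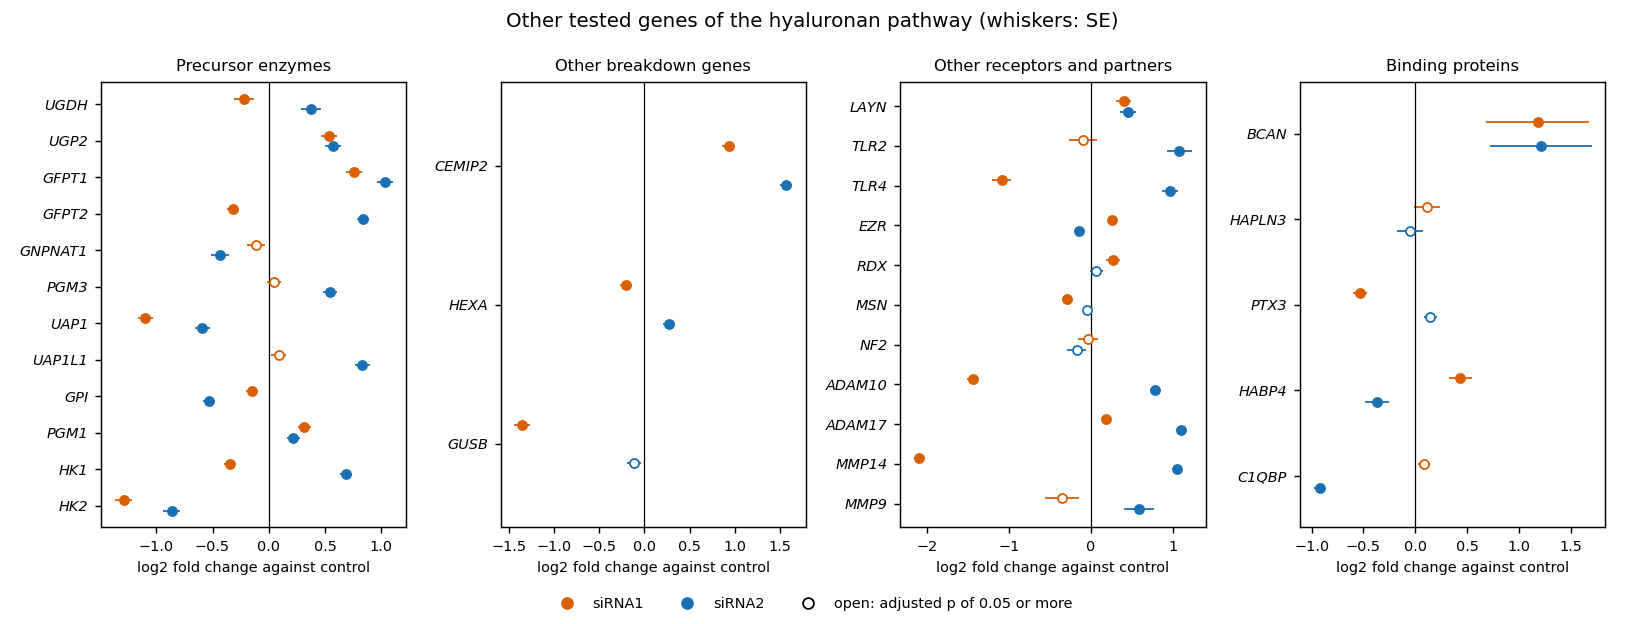
Log2 fold change against control of tested precursor enzymes, other breakdown genes, other receptors with their partners, and hyaluronan-binding proteins, with whiskers for the SE and open points where the adjusted p is 0.05 or more. MMP14 shows the widest gap between the siRNAs, at -2.10 and 1.05.

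Among 14 other receptors and partners of CD44, 11 were tested. With siRNA1 4 rose and 4 fell, beside 25.1% and 25.4% of all tested genes. With siRNA2 7 rose and 1 fell, beside 27.2% and 28.9%. The median log2 fold changes of the 11 were -0.10 and 0.59. Without siRNA1 replicate 2, 2 in place of 4 rose with siRNA1, and without siRNA2 replicate 1 or 3 none fell with siRNA2 (0 in place of 1). MMP14, a membrane metalloproteinase able to cleave CD44, stood at 824 ± 17.7 CPM in control, 193 ± 10.5 CPM after siRNA1 and 1710 ± 171 CPM after siRNA2 (SD, n = 3 each). Its log2 fold changes were -2.10 (adjusted p = 2.80e-20) and 1.05 (adjusted p = 3.00e-14), by edgeR. ADAM10, which sheds the CD44 ectodomain, was at -1.44 and 0.78, and the sheddase ADAM17 rose with both (0.18 and 1.10), though the smaller call, with siRNA1, was lost without control replicate 3 or siRNA1 replicate 2. TLR4, a receptor reported to sense hyaluronan fragments, was at -1.09 and 0.97, and TLR2 (1.08) and MMP9 (0.59) rose with siRNA2, were not called with siRNA1, and were higher with siRNA2 than with siRNA1 by 1.18 and 0.94 (adjusted p = 1.13e-07 and 0.000122, by edgeR). The siRNA2 call of MMP9 was lost without control replicate 2 or siRNA2 replicate 1, and MMP9 was called with siRNA1 without siRNA1 replicate 1. The siRNA1 word, held by 16.78% of all UTRs read, is in those of MMP14, ADAM10 (5 sites), TLR4, GFPT1, HK2, UAP1L1, HEXA and TOP2A. Other listed genes that hold it are PGM3, GPI, RDX, NF2 and KIF20A. With siRNA1 against control these were at 88.1 against 85.4, 348 against 385, 62.0 against 51.4, 10.4 against 10.6 and 244 against 202 CPM. The part of the word in any of these values was not tested. LYVE1, the receptor of lymphatic endothelium, had 0 counts in every library.

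Of 19 listed hyaluronan-binding proteins, mostly secreted or of the matrix, 5 were tested, among them HABP4 and C1QBP, which are mainly intracellular. With these, 2 rose and 1 fell with siRNA1, beside 25.1% and 25.4% of all tested genes. With siRNA2 1 rose and 2 fell, beside 27.2% and 28.9%. The median log2 fold changes of the 5 were 0.12 and -0.047. PTX3, a pentraxin that joins hyaluronan matrices, fell with siRNA1 (-0.53, adjusted p = 7.27e-08) and was at 0.14 with siRNA2 (adjusted p = 0.0563, by edgeR). The siRNA2 value of PTX3 was called with RLE scaling, no filter, a mean FPKM of at least 1, both limma fits, 2 groups alone and DESeq2. It was also called without control replicate 2 or siRNA1 replicate 2, but not with a replicate block. C1QBP fell with siRNA2 (-0.92), and HABP4 was at 0.44 and -0.37, the latter call being lost without control replicate 1. BCAN, a brain proteoglycan with 3 to 19 counts per library, was at 1.18 and 1.21 and called with each, and lost its call in several alternative fits of each. It passed the count filter only through siRNA libraries, with 3 to 8 counts in control, so these calls support nothing. BCAN is 1 of the 2 genes that rose with siRNA1 and the only gene that rose with siRNA2. Left-out libraries changed these small counts: 1 in place of 2 rose with siRNA1 unless control replicate 3 or siRNA1 replicate 3 was the one left out. With siRNA2 none rose (0) without control replicate 1 or siRNA2 replicate 1 or 2, 2 rose without siRNA1 replicate 2, and 1 in place of 2 fell without control replicate 1. ITIH5, ACAN, HAPLN4 and HABP2 had 0 counts in every library.

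Across the 9 libraries, the genes closest in pattern to each member were named by Pearson's r of log2 CPM, as a description over libraries that share 3 groups. The closest to CEMIP was SLC7A5, an amino acid transporter gene (r = 0.994, 609 CPM in control, 1194 CPM with siRNA1 and 1186 CPM with siRNA2), then PDK2 and DAB2IP (both 0.99 by r). For HAS2 it was HAUS6 (r = 0.985), then TMEM14A and LRRC40, and for HAS3 KLHL25 (r = 0.959), AGMAT and WASF1. HYAL2 was closest to ERGIC1 (r = 0.992), JRK and CASKIN2, and HYAL3 to UBTD1 (r = 0.986), PRKD2 and SLC27A1. CD44 was closest to PPFIBP1 (r = 0.990), ST6GAL1 and HIVEP2, and HMMR to ACADM (r = 0.987), PHKB and GATC. For HYAL1, with its few counts, the highest r was 0.899 (KCNAB1), and CYP27B1 and ODAD1 followed. Among the members themselves, CEMIP and HYAL2 (r = -0.909) and CD44 and HMMR (r = -0.911) were the most opposed pairs.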

How the data were processed

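RNA of 9 libraries was measured by RNA sequencing, in 3 groups taken from the sample titles. The deposited table holds raw counts per gene and library and FPKM values that the authors made from them; dividing counts by exonic length (a deposited column, in bases) and library total gave 100% of the deposited FPKM within 0.005. The submitters' processing notes name the build hg19 and, with no roles, DESeq, HTSeq 0.6.1, HISAT2 2.0.1 and Trimmomatic 0.30, yet 99.98% of 58394 identifiers lie at their GENCODE v29 place on GRCh38, including all 8 members.

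Genes passing filterByExpr (minimum count 10, minimum total 15; 15345 of 60612, 99.873% of counts) were scaled by TMM and tested with edgeR 4.0.16 (robust quasi-likelihood, 1 fit of 3 groups, two-sided, Benjamini-Hochberg) in R 4.3.3, in 3 comparisons. The common biological coefficient of variation was 0.0641, and the fit was tested on simulated data. Within groups, the chi-square between library pairs was 2.16 to 8.42 per gene, above counting noise, and no pair was counted as 1 sample. Alternatives were median-of-ratios (RLE) scaling, no filter, a mean FPKM of at least 1, limma 3.58.1 on log2(FPKM + 1) or (FPKM + 0.1), DESeq2 1.42.0, a replicate block, 2 groups alone and each library left out. Applying them to the gene lists and neighbours was chosen after seeing the data. Limits given for low counts cover counting error only.

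The members and lists were chosen with earlier results of these data known. Named genes are all members, MILIP, up to 6 called genes of each list with the largest log2 fold change, listed genes at 0 in every library, neighbours within 50 kb of a HYAL gene or overlapping or facing a member, and the 3 genes of highest r for each member. HYAL4, SPAM1, HAS1, the markers and the further listed genes that hold the siRNA1 word were named outside this rule. Some genes that the rule names are left out of the text and figures, while list counts and sums include them. Motifs and words were searched in Python 3.11.15, with promoters from RefSeq and UTRs from GENCODE.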

Additional observations from a re-analysis of the deposited data

Results flagged for a closer look

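CD44 moved to opposite sides of control, with a log2 fold change of -0.34 with siRNA1 and 0.17 with siRNA2 and every library of each group beyond every control library. Whether the effects of the siRNAs differ was not tested apart from the direct comparison of the groups, and CD44 was among genes chosen with these values known.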

How the results depend on the processing

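All members but HYAL1, HAS3, HYAL3 and CD44 kept direction and call against control under each alternative run. With limma on log2(FPKM + 1) and log2(FPKM + 0.1), CEMIP between the siRNAs was at -0.013 and -0.016 in place of 0.0083, and from -0.084 (without siRNA2 replicate 1) to 0.077 as libraries were left out, with -0.048 without siRNA1 replicate 1. HYAL1, with 4 to 12 counts, ranged from -0.40 to 0.45 with siRNA1 (0.058 without siRNA1 replicate 2, 0.45 without control replicate 2) and from -0.0063 (without control replicate 3) to 0.83 with siRNA2. HAS3 with siRNA2 was called with limma (-0.17 and -0.42 at the pseudocounts of 1 and 0.1) and without siRNA2 replicate 3 (-0.64). The cause was not tested. Leaving out each library in turn gave 6882 to 7688, 7833 to 8908 and 8623 to 9632 called genes in the 3 comparisons. Of the listed genes called against control (37 with siRNA1, 47 with siRNA2) and between the siRNAs (44), 0 changed direction where an alternative tested them, and up to 4, 5 and 3 lost their call.

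Same-numbered libraries did not deviate together (correlations from -0.128 to 0.16), so the numbers were not taken to pair them. With a replicate block, 7778, 8636 and 9314 genes were called, and CEMIP was at 2.95 and HAS2 at -1.75 with siRNA1. The block changed no call of a member. Low depth limits what can be read for HYAL1 (4 to 12 counts), HAS2-AS1 (2 to 21) and BCAN (3 to 19).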
